A study of Mus musculus with 48 samples.

Results

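The transcripts described here carry pseudogene symbols, with Eno1b beside them: 211 rows of a kidney RNA-seq count table, out of 55487 rows in all. They are the rows whose mouse symbols end in -ps with or without digits, leaving out symbols that start with H2-, and that held 100 or more counts summed over 48 libraries, plus Eno1b. Of 1552 rows with the -ps ending, 693 had any count and 210 reached the threshold. The -ps members were selected on their total count, and Eno1b was added because its strain difference had been seen, so its strain values are given as a description with no test. Kidneys of male mice from 2 inbred strains, C57BL/6J and DBA/2J, were studied as slices outside the body (ex vivo), and 48 poly(A) libraries were made, 3 for each of 16 groups. In each strain the slices were left as controls or given tunicamycin or cyclosporin A, for 6 h or for 24 h in each case, which makes 6 conditions. The other 2 conditions were normoxia, which the labels call a model of ischemia, and normoxia-hyperoxia, which they call a model of reperfusion, both with 24 h in their titles. All slices were handled ex vivo, the labels give no age or dose, and a biological replicate number is all they say of how the 3 samples of a group are related. P-values therefore measure the spread between these samples, which may be technical.

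A processed pseudogene arises when a messenger RNA is copied back into DNA and inserted elsewhere in the genome. It keeps the exon sequence of its parent without the introns and usually without the promoter. Ribosomal protein genes, glycolytic enzymes and other abundantly transcribed genes have many such copies in mammals. Copies that are recent differ from the parent at few bases, and a short read from a stretch with no difference fits the parent and the copy equally well. Unprocessed pseudogenes arise by duplication and keep introns, and unitary pseudogenes are disabled genes with no working copy left.

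The label of processed pseudogenes held for most rows: 170 of the 211 were annotated as processed or transcribed processed pseudogenes in GENCODE M21. A further 15 were transcribed unprocessed and 10 were unprocessed pseudogenes, and 7 rows, Eno1b among them, were annotated as protein coding. A parent gene could be given to 198 rows, 174 of them from the symbol and 24 from the best-aligning protein-coding gene, and 13 had none. Their transcripts aligned to those of the parents at a median identity of 98.7%, over a median of 626.5 bases with a median of 8 mismatches. The lowest identity was 80.5%, 82 rows reached 99%, and 21 had no differing base over the aligned part. A ribosomal protein gene was the parent of 68 rows. Most rows held few counts: the median total was 436 and 144 rows held under 1000. At the threshold, Rps6-ps1 entered with 100 counts, Cyp4b1-ps1 with 101 and Amd-ps3 with 102, while Ces2d-ps stayed out with 99 and Pdxk-ps, Rpl13a-ps1 and Uqcrh-ps2 with 97.

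Stretches of 90 bases are printed for copies whose strain differences are described in detail. The stretches were picked in the coding sequence for the most differing copies and then the most differing bases. They are thus not typical of the whole aligned part, where Rpsa-ps10 had 6 mismatches in 885 bases and Rpl15-ps2 had 8 in 613. They are the transcript strand from 5′ to 3′, from GENCODE M21 on GRCm38, with bases that differ between the member and its parent in capitals. Rpsa encodes a protein of the small ribosomal subunit. Its stretch (chr9:120128619-120129243, plus strand, interrupted by an intron) and that of Rpsa-ps10 (chr3:150073324-150073413, minus strand) differ at 2 bases.
Rpsa: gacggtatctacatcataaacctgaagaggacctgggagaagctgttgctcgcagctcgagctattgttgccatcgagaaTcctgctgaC
Rpsa-ps10: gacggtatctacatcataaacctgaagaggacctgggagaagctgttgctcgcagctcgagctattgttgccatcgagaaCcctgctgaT
Atp6v0c encodes the membrane ring subunit of the vacuolar proton pump. Its stretch (chr17:24164851-24169263, minus strand, interrupted by an intron) holds the only base that differs from Atp6v0c-ps2 (chr6:37806107-37806196, plus strand) over 465 aligned bases.
Atp6v0c: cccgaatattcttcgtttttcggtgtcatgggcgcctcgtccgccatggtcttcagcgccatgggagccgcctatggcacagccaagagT
Atp6v0c-ps2: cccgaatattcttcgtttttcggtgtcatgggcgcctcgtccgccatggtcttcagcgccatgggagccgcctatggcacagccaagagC
Rpl15 (chr14:18270347-18270436, minus strand), a protein of the large ribosomal subunit, and Rpl15-ps2 (chr9:72060949-72061038, plus strand) differ at 3 bases of the stretch.
Rpl15: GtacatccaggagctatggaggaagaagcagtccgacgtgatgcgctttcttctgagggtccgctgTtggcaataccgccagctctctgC
Rpl15-ps2: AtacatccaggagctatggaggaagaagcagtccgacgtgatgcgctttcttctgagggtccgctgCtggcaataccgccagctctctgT
Rpl3 (chr15:80079753-80079842, minus strand), which helps build the catalytic centre of the ribosome, has a pair of copies on the X chromosome whose strain differences had opposite signs. Rpl3-ps1 (chrX:13203268-13203357, plus strand) and Rpl3-ps2 (chrX:74171351-74171440, plus strand) hold the same differing base in this stretch. Over the whole aligned part, Rpl3-ps1 had 2 mismatches in 1210 bases, and Rpl3-ps2 had 10 mismatches and 2 gap openings in 1215.
Rpl3: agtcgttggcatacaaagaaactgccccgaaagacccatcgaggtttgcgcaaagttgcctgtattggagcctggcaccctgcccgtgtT
Rpl3-ps1: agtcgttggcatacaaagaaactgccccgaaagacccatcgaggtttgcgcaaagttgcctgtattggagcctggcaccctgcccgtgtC
Rpl3-ps2: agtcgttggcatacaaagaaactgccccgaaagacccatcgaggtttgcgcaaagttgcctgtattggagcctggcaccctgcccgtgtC

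Rps15a had the most copies among the members, 6, and their strain differences varied in size, so all are shown with the parent. Rps15a encodes a protein of the small ribosomal subunit, and the stretch begins at its start codon. Capitals in a copy mark bases that differ from Rps15a (chr7:118115152-118115241, minus strand), and capitals in Rps15a mark bases that differ in any copy. Rps15a-ps8 (chr4:53791367-53791456, minus strand) differs at 12 of the 90 bases and the other copies at 1 or 2.
Rps15a: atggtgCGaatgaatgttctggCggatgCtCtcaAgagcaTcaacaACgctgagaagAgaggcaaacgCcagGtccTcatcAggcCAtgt
Rps15a-ps3: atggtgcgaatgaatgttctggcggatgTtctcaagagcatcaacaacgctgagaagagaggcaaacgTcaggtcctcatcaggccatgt
Rps15a-ps4: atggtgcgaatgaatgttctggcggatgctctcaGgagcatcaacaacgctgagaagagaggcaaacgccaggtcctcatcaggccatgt
Rps15a-ps5: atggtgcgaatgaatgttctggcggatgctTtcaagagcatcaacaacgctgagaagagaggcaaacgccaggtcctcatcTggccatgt
Rps15a-ps6: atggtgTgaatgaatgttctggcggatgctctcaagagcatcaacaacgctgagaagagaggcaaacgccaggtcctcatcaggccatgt
Rps15a-ps7: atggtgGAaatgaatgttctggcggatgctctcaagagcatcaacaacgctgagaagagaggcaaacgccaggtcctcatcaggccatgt
Rps15a-ps8: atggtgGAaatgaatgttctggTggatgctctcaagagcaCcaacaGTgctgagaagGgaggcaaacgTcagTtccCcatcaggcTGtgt
Over the whole aligned part, identity to Rps15a was 92.2% for Rps15a-ps8 and 97.4% to 98.7% for the other copies, and any pair of the 6 copies shared 91.0% to 98.5% of positions.

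Library depth was 12384733 to 25137581 counts in C57BL/6J and 5619309 to 24426584 in DBA/2J, where the shallowest library was replicate 2 of normoxia-hyperoxia and the strain medians were 19541056 and 19661569. Replicates of a group differed by more than counting noise in each of the 48 pairs. Defining genes of the proximal tubule, loop of Henle, distal tubule, collecting duct, podocytes and endothelium had counts in every library, and Umod of the loop of Henle had a median of 4295 CPM (the usual scaling of a count by the total of its library). Mitochondrially encoded genes took 5.43% to 25.6% of the counts in C57BL/6J and 3.11% to 17.4% in DBA/2J, and the part of that difference in the values given here was not tested. In bulk tissue, fewer cells of a type and less RNA per cell cannot be told apart.

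Together the 211 members took a larger share of all counts in DBA/2J slices than in C57BL/6J slices. The share was lowest at 0.0291%, had a median of 0.0352% and was highest at 0.0415% in the 24 C57BL/6J libraries. In the 24 DBA/2J libraries it was lowest at 0.0664%, had a median of 0.0747% and was highest at 0.112%. The strains did not overlap. Since Eno1b was chosen for its strain difference, the share was also taken without it, and was then 0.0290%, 0.0349% and 0.0414% (lowest, median, highest) in C57BL/6J and 0.0610%, 0.0686% and 0.0878% in DBA/2J, again with no overlap. The members that entered through DBA/2J alone add to this difference by their choice. Eno1b, Rpsa-ps10 and Atp6v0c-ps2 held 55004, 57309 and 31042 counts in all, nearly all of them in DBA/2J.

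Strain differences were tested as DBA/2J minus C57BL/6J, averaged over the 8 conditions, with edgeR's quasi-likelihood test on the 20271 genes of 100 or more counts and Benjamini-Hochberg adjustment. A gene was called at an adjusted p under 0.05. Of the 210 -ps members, 80 were called, 62 higher and 18 lower in DBA/2J, where 60.4% of all tested genes were called and 31.1% were called higher. The members' median log2 difference was 0.15, beside 0.01 over all tested genes. For differences of at least 4-fold the order was the other way: 35 of the 210 -ps members were called with such a difference, 30 of them higher in DBA/2J, where the share among all tested genes was 3.98%, or 2.67% counting only genes higher in DBA/2J. The same was true of 15.5% of 872 other processed pseudogenes that carry no -ps symbol and of 2.25% of 15729 protein-coding genes outside the members, so the share was near that of other processed pseudogenes. By annotated type, the 35 held 28 of 158 processed, 2 of 12 transcribed processed, 4 of 10 unprocessed and 1 of 15 transcribed unprocessed pseudogenes. They lay on 14 chromosomes with Eno1b counted, and 35 of the 36 overlapped no exon of another gene on their strand.

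Since the threshold is on the total, a member seen in a single strain entered through that strain and had to differ. Under 50 counts were found in C57BL/6J for 24 members, 15 of which were called at 4-fold or more, and under 50 in DBA/2J for 10 members, 4 of which were. Among the 177 members with 50 or more counts in each strain, 16 -ps members and Eno1b differed at 4-fold or more. The share of all genes that meet the same rule was not taken, so this count has no background beside it. The 35 -ps members were picked on the average of the 8 conditions, so their values in single conditions are a description. All 35 had the same direction in each condition, with 31 to 34 of them at 4-fold or more. The 16 of them with 50 or more counts in each strain also had the same direction in each condition, with 15 or 16 called. For 26 of the 210, plus Eno1b, the lowest library of the higher strain exceeded the highest library of the lower strain, 25 with DBA/2J above and 1, Rpl3-ps2, with C57BL/6J above. That pattern held for 1.44% of all tested genes.

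Rpsa-ps10 (ENSMUSG00000047676), the intronless copy of Rpsa, held the most counts of all members. Its level was 0.620 CPM in the lowest C57BL/6J library, 1.56 CPM at the median and 2.63 CPM in the highest. In DBA/2J it was 65.6 CPM, 90.7 CPM and 206 CPM in the same order. The strains were separate, with a log2 difference of 6.16 ± 0.06 (SE, edgeR quasi-likelihood, adjusted p 2.18e-44), and the difference was 5.66 to 6.59 in single conditions. Per kilobase of exon, the mean level in DBA/2J was 137 CPM for Rpsa-ps10 and 92.9 CPM for Rpsa, and in C57BL/6J it was 1.72 CPM and 133 CPM. Per kilobase the order of the copy and its parent was thus opposite in the strains, while by counts, not divided by length, Rpsa exceeded the copy in both.

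Atp6v0c-ps2 (ENSMUSG00000080242) held the most counts after Rpsa-ps10 among the -ps members called at 4-fold or more. Its lowest, median and highest levels were 0.532, 0.945 and 1.60 CPM in C57BL/6J and 45.2, 63.5 and 84.8 CPM in DBA/2J. The strains did not overlap, and the log2 difference was 6.00 ± 0.06 (SE, edgeR quasi-likelihood, adjusted p 2.63e-45). Atp6v0c itself went the other way, with 86.8, 114 and 135 CPM in C57BL/6J and 48.4, 56.8 and 73.3 CPM in DBA/2J, again with no overlap. Its log2 difference was -1.03 ± 0.03 (SE, edgeR quasi-likelihood, adjusted p 3.38e-26).

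Eno1b (ENSMUSG00000059040), named as a protein-coding enolase gene and aligned to the glycolytic enzyme gene Eno1 at 99.5% identity over 1652 bases, had a longest stretch of 751 bases without a difference from Eno1. Its level was 0.411, 0.9988 and 3.94 CPM (lowest, median, highest) in C57BL/6J and 43.9, 68.7 and 251 CPM in DBA/2J, with no overlap. Eno1, with 316, 522 and 1847 CPM in C57BL/6J and 238, 424 and 1459 CPM in DBA/2J, overlapped between strains and differed by -0.46 ± 0.04 on the log2 scale (SE, edgeR quasi-likelihood, adjusted p 7.69e-14). The neuronal enolase gene Eno2, which is no pseudogene parent here, differed by 1.81 and the muscle enolase gene Eno3 by -0.22, while Eno4 had under 1 CPM in each library.

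The 10 -ps members with the largest called strain differences were all higher in DBA/2J, and most had almost no counts in C57BL/6J. Rpl15-ps2 was at 0 in 18 of 24 C57BL/6J libraries, with 0.147 CPM in the highest, and at 3.44, 6.37 and 14.1 CPM (lowest, median, highest) in DBA/2J. Rps15a-ps8 was at 0 in 21 C57BL/6J libraries and at 0.853, 2.25 and 4.09 CPM in DBA/2J. The strains were separate for each, and the log2 differences were 8.62 ± 0.19 and 7.88 ± 0.29 (SE). Both entered through their DBA/2J counts, so these are given as a description. With 3 counts against 1146, the ratio for Rps15a-ps8 was 383, with a 95% exact interval for counting error of 131 to 1861.

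Zfp36l1-ps, a copy of the gene for an mRNA decay factor, had 26 counts in C57BL/6J and 2758 in DBA/2J and differed by 6.77 ± 0.23. Tmem181c-ps, an unprocessed pseudogene nearest to Tmem181a, had 5 and 487 counts and differed by 6.54 ± 0.34. Eif3s6-ps2, a copy of the translation initiation factor gene Eif3e, had 47 and 2356 counts, and Glns-ps1, a copy of the glutamine synthetase gene Glul, had 39 and 1753. These last differed by 5.62 ± 0.17 and 5.44 ± 0.18 on the log2 scale. None of these 4 overlapped between strains, and since all had under 50 counts in C57BL/6J and entered through DBA/2J, their differences are a description.

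Ywhaq-ps1 and Serpina3e-ps complete the 10 and rest on fewer counts. Ywhaq-ps1 had 0 counts in all C57BL/6J libraries and 284 in DBA/2J, which is at least 94.95-fold higher against a floor of 3 counts over the strain. Despite its name it aligned best to Sfn, an epithelial 14-3-3 protein gene, at 88.1% identity. Both rows entered through DBA/2J and are given as a description. The fitted call of Ywhaq-ps1 was lost without replicate 3 of DBA/2J normoxia (edgeR quasi-likelihood, adjusted p 0.9999), where its log2 difference was 5.63 against 5.86 with all libraries. Serpina3e-ps, a duplicated member of a serine protease inhibitor cluster, had 1 count in C57BL/6J and 206 in DBA/2J, a ratio of 207 with a 95% exact counting interval of 36.7 to 8200. Its nearest coding gene, Serpina3i, differed by 5.40 in the same direction, and it was the only parent of these 10 members with a value above 0.

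**Figure D1:**
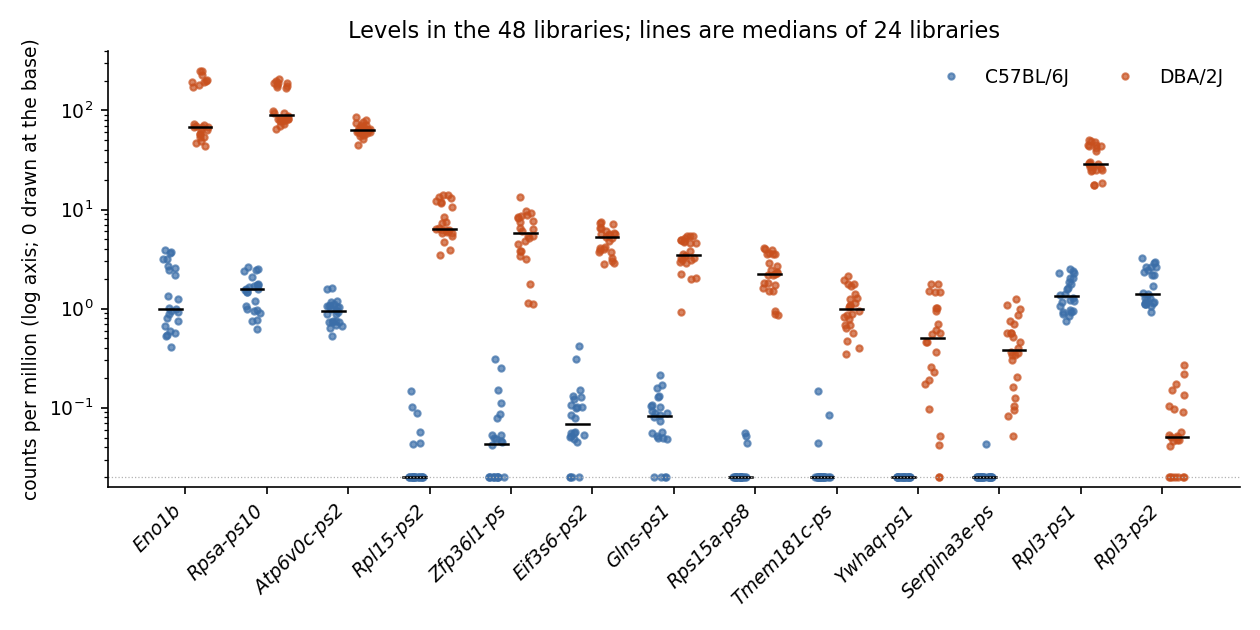
CPM of 12 -ps members and Eno1b (log axis) in the 24 C57BL/6J libraries (blue) and the 24 DBA/2J libraries (orange), each point a library and each line a median of 24, with libraries at 0 drawn at the base. For every one but Ywhaq-ps1 the strains are separate, DBA/2J above in all of those except Rpl3-ps2.

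The 5 members called at 4-fold or more in the other direction were Rpl3-ps2, Nlrp1c-ps, Rpl21-ps8, Znf41-ps and Rpl13-ps1. Rpl3-ps2 was at 0.918, 1.41 and 3.22 CPM (lowest, median, highest) in C57BL/6J and at 0, 0.0509 and 0.269 CPM in DBA/2J. Its log2 difference was -4.85 ± 0.20 (SE), given as a description since it entered through its C57BL/6J counts. Rpl3-ps1 was at 0.743, 1.33 and 2.49 CPM in C57BL/6J and 17.6, 29.1 and 50.7 CPM in DBA/2J, a log2 difference of 4.39 ± 0.05. The levels of both copies were thus alike in C57BL/6J, and in DBA/2J they lay apart. Nlrp1c-ps, a pseudogene of the inflammasome sensor family, had 232 counts in C57BL/6J and 17 in DBA/2J, and its log2 difference was -3.72 ± 0.32, also a description since it entered through C57BL/6J. Its nearest coding gene Nlrp1a differed by 1.06. Rpl21-ps8, Znf41-ps and Rpl13-ps1 differed by -3.36, -2.82 and -2.55 on the log2 scale. Those of Rpl21-ps8 and Znf41-ps are descriptions for the same reason. Mup-ps23 had 2509 counts in C57BL/6J and 212 in DBA/2J but 0 in all normoxia libraries, where an average over conditions could not be estimated. A fit with a term for strain and a term for condition gave it a log2 strain difference of -3.68.

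All 6 Rps15a copies were higher in DBA/2J. The log2 differences were 1.74 ± 0.30 for Rps15a-ps3, 3.58 ± 0.17 for Rps15a-ps4, 3.62 ± 0.18 for Rps15a-ps5, 3.25 ± 0.13 for Rps15a-ps6 and 2.92 ± 0.11 for Rps15a-ps7, beside 7.88 for Rps15a-ps8. Rps15a-ps7 held the most counts, with 0.244, 0.644 and 1.72 CPM (lowest, median, highest) in C57BL/6J and 2.52, 5.64 and 10.1 CPM in DBA/2J. The strains were separate for each copy but Rps15a-ps3, whose adjusted p was 0.9999 by edgeR's quasi-likelihood test without replicate 1 of DBA/2J normoxia-hyperoxia. Rps15a differed by -0.29 ± 0.03 (SE, edgeR quasi-likelihood, adjusted p 1.12e-11). Rps15a-ps7, whose first bases carry the same pair of differences as Rps15a-ps8, kept a stretch of 211 bases without a difference from Rps15a, and in Rps15a-ps8 the longest was 65 bases.

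High levels did not go with a strain difference in all members. Of the 10 -ps members with the highest mean CPM, Rpsa-ps10, Atp6v0c-ps2 and Rpl3-ps1 differed more than 4-fold and the other 7 did not. Tmem250-ps, annotated as a lincRNA, was at 37.2, 50.9 and 83.4 CPM in C57BL/6J and 56.4, 65.4 and 104 CPM in DBA/2J (lowest, median, highest), with overlap and a log2 difference of 0.33 ± 0.03. Ndufb1-ps and Ppp4r1l-ps had medians of 50.6 and 25.12 CPM in C57BL/6J and 46.5 and 26.3 CPM in DBA/2J. Their log2 differences were -0.18 ± 0.04 and -0.11 ± 0.05, the last with an adjusted p of 0.0513 by edgeR's quasi-likelihood test. Rpl14-ps1 differed by 0.99, Gpr137b-ps, an unprocessed copy of a lysosomal membrane protein gene, by 0.81, Mpc1-ps, a copy of the mitochondrial pyruvate carrier gene, by 0.59 and Ube2d-ps by 0.17. Tmem250-ps, Ndufb1-ps and Ube2d-ps overlap exons of another gene on the opposite strand, and since the counting is not stated to have used strand, their counts are uncertain in that respect.

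By identity to the parent, a difference of at least 4-fold was called in 8 of 81 -ps members at 99% identity or more and in 26 of 116 below 99%. Among copies of ribosomal protein genes it was called in 13 of 68, and among copies of other genes in 21 of 129. By level, it was called in 10 of 108 members under 0.5 CPM, in 21 of 86 between 0.5 and 5 CPM and in 4 of 16 above 5 CPM. These counts describe the members and were not tested.

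The parents were called for strain more often than the members, with smaller differences, but most parents held far more counts than their members. Among the -ps members the share called rose with level. It was 25 of 108 under 0.5 CPM, 42 of 86 between 0.5 and 5 CPM and 13 of 16 above 5 CPM. Whether depth accounts for the different shares was not tested. Of 162 parent genes, 159 were tested and 106 were called, 50 higher and 56 lower in DBA/2J, which is 66.7% beside 60.4% of all tested genes and 38.1% of the -ps members. The parents' median log2 difference was 0.02, and 3 of them, Klk1b9, Serpina3i and Sfn, or 1.89%, were called at 4-fold or more. The 28 tested parents of a -ps member called at 4-fold or more had a median of -0.25, with 18 called lower and 3 called higher in DBA/2J. Among the other 130 parents, 37 were called lower and 47 higher, with a median of 0.04. Of 30 -ps members called at 4-fold or more higher in DBA/2J, all with a tested parent, 25 had a parent whose value was below 0. Rps15a-ps4 to Rps15a-ps8 among them share the parent Rps15a, so these are not 25 separate parents. Across 195 member and parent pairs, the strain differences of member and parent had a Pearson correlation of -0.02, a description over pairs that share libraries and, in families, the parent.

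**Figure D2:**
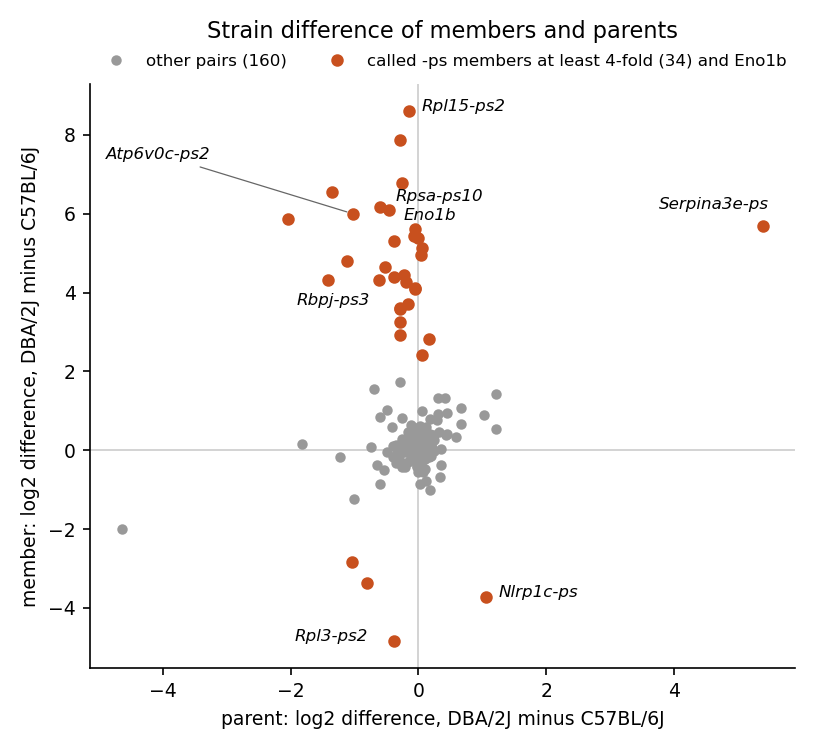
Log2 strain difference of each member (vertical) against that of its parent (horizontal) for 195 pairs, DBA/2J minus C57BL/6J, with the 34 -ps members called at 4-fold or more, and Eno1b, in orange. Most orange points stand above 4 on the vertical axis or close to it with a parent near or below 0, while Serpina3e-ps lies beside a parent that is also higher in DBA/2J.

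Adding the counts of the members to those of their parent before the fit moved the parents' strain differences. The median of the 28 parents of a -ps member called at 4-fold or more went from -0.25 to -0.11, a direction fixed by the choice of members that are mostly higher in DBA/2J. The absolute difference became smaller for 20 of these 28 parents and for 75 of the other 130, whose median stayed at 0.04. For Atp6v0c the log2 difference went from -1.03 to 0.05 (edgeR quasi-likelihood, adjusted p 0.269), for Rpsa with its 3 copies from -0.60 to -0.11, and for Eno1 with Eno1b from -0.46 to -0.24. Rbpj, which encodes the DNA-binding partner of Notch, went from -1.42 to -0.91 with Rbpj-ps3, and Rps15a went from -0.29 to -0.12 with its 6 copies. For Rpl15 the change was from -0.14 to -0.06, and for Rpl3 it was from -0.38 to -0.24. The sums of Rpl14 and of Gpr137b moved away from 0, from 0.05 to 0.12 and from 0.18 to 0.34. Whether reads of the parent were counted for the copy, or reads of the copy for the parent, was not tested.

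For 9 pairs picked for their strain difference or level, the share of a pair's counts held by the copy was followed over the conditions. Rpsa-ps10 held 27.2% ± 0.33 (SD, n = 3) of the counts of Rpsa-ps10 and Rpsa in DBA/2J controls at 6 h, and 30.5% ± 0.73 with tunicamycin at 24 h, the lowest and highest means of the 8 conditions. In C57BL/6J its means were 0.301% to 0.517%. Eno1b held means of 13.7% to 15.7% in DBA/2J and 0.159% to 0.218% in C57BL/6J, of which the 15.7% was in normoxia. Atp6v0c-ps2 held 49.7% to 57.2% in DBA/2J, the copy and its parent thus dividing the counts about equally, and 0.626% to 1.22% in C57BL/6J. Mpc1-ps held 19.4% to 21.5% in DBA/2J and 10.8% to 12.1% in C57BL/6J. Rbpj-ps3 ranged more widely, with 32.98% ± 0.82 (SD, n = 3) in DBA/2J controls at 24 h, 19.4% ± 2.6 in normoxia and 27.3% ± 1.3 in normoxia-hyperoxia. In DBA/2J the means were 9.82% to 10.7% for Rpl3-ps1, 7.25% to 9.97% for Rpl34-ps1, 19.9% to 25.8% for Mrpl48-ps and 9.21% to 11.8% for Rpl14-ps1. In C57BL/6J the highest means of these 4 copies were 0.522%, 0.218%, 1.24% and 7.19%.

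**Figure D3:**
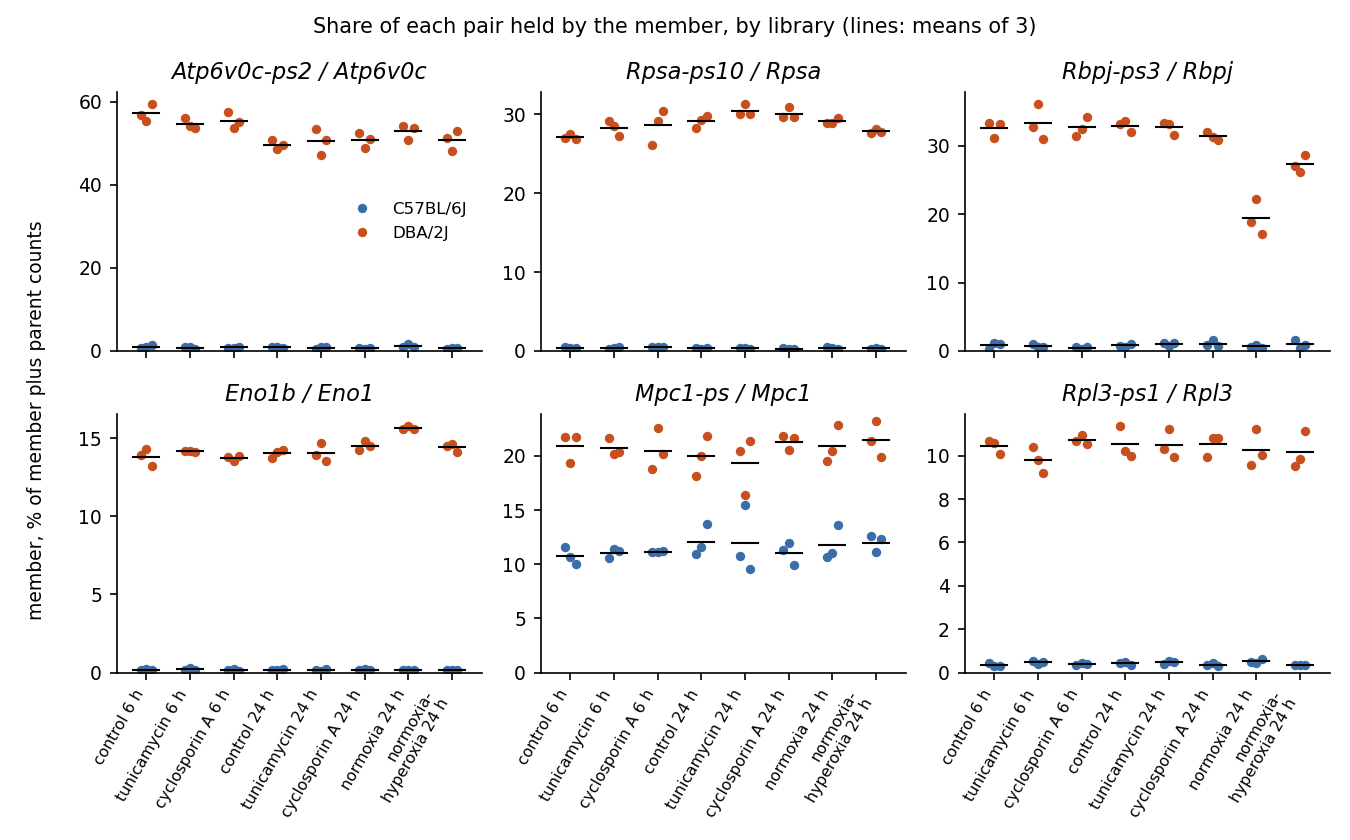
Counts of the copy as a percentage of copy plus parent in each library, by condition, for 6 pairs, with C57BL/6J in blue, DBA/2J in orange and lines at means of 3. DBA/2J lies above C57BL/6J in every condition, and in Rbpj-ps3 the share falls to 19.4% in DBA/2J normoxia.

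In normoxia and normoxia-hyperoxia more members fell than rose, and from 6 h to 24 h more rose than fell. Against 24 h controls, averaged over strains, 109 of the 211 members were called in normoxia by edgeR's quasi-likelihood test, 33 higher and 76 lower, where 75.1% of all tested genes were called and 37.3% were called higher. In normoxia-hyperoxia 80 were called, 25 higher and 55 lower, beside 61.3% called and 31.2% called higher of all genes. In 24 h against 6 h controls 71 were called, 44 higher and 27 lower, beside 65.4% called and 32.1% called higher. The members' shares were below the background in each, and 144 of the members held under 1000 counts in all. The members' median log2 differences were -0.51, -0.36 and 0.31, beside -0.01, 0.02 and -0.01 over all tested genes. Parents had medians of -0.64, -0.45 and 0.35 in the same order, with 137, 132 and 134 of 159 called. The comparisons with normoxia, normoxia-hyperoxia and the drugs share the 24 h controls, and the time comparison uses them too.

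Where a member and its parent were both called, their signs were mostly the same: 87 of 92 pairs in normoxia, 62 of 68 in normoxia-hyperoxia and 50 of 55 between times. Called parents leaned the same way as the members, with 106 lower and 31 higher in normoxia. They were 101 lower and 31 higher in normoxia-hyperoxia, and 34 lower and 100 higher between times. Such a lean alone makes many signs agree, and the share it would give was not taken. Across the 195 pairs, Pearson's correlation of the log2 differences was 0.62, 0.68 and 0.57. For the 34 pairs whose -ps member was called at 4-fold or more between strains it was 0.73, 0.69 and 0.63, and for the 160 pairs other than these and Eno1b it was 0.61, 0.68 and 0.56. A fit with a strain term and a condition term, added after seeing the data because it can use members at 0 in a group, gave 0.91, 0.89 and 0.84 for the 34 pairs and 0.61, 0.71 and 0.58 for the 160. These are descriptions across pairs, which share libraries, and have no test. For strain, the first fit gave 0.01 for the 34 pairs and 0.43 for the 160.

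**Figure D4:**
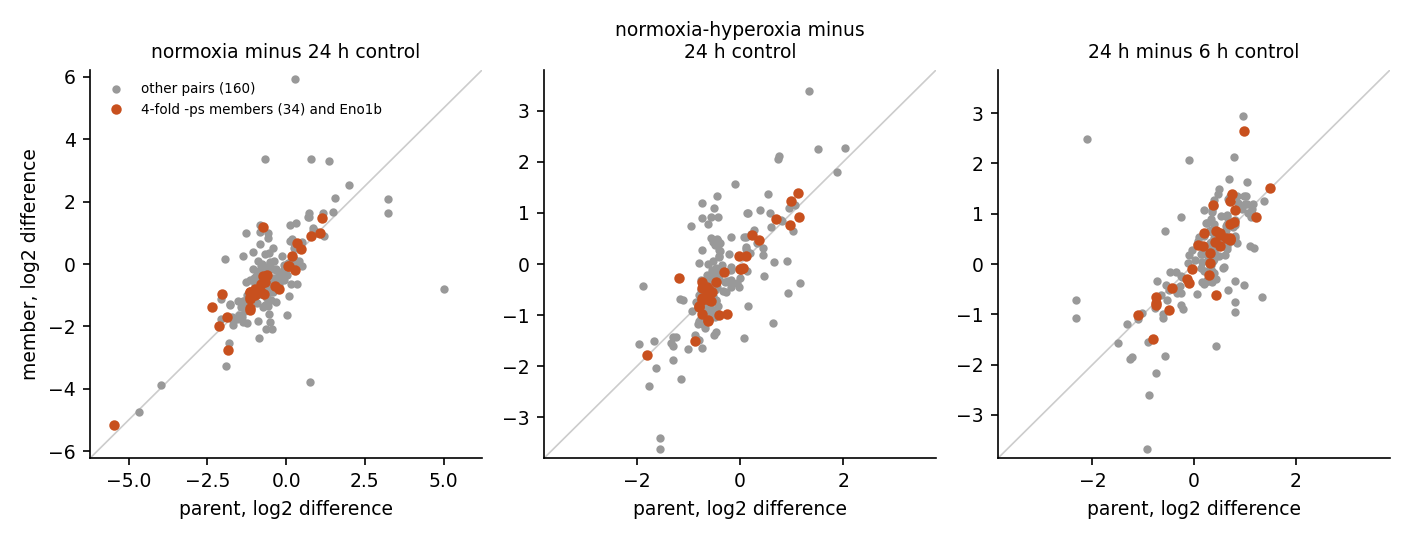
Log2 difference of the member against that of its parent for 195 pairs in normoxia and normoxia-hyperoxia against 24 h controls and in 24 h against 6 h controls, from the fit with a strain and a condition term, with the diagonal drawn. The 34 pairs whose -ps member was called at 4-fold or more between strains, with Eno1b, are in orange and mostly lie close to the diagonal in all 3 panels.

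Eno1b followed Eno1 in normoxia, in normoxia-hyperoxia and from 6 h to 24 h, though not between strains. In DBA/2J its 3 libraries held 193.5, 226.6 and 200.5 CPM in 24 h controls, 48.7, 46.5 and 43.9 CPM in normoxia and 54.3, 58.4 and 53.6 CPM in normoxia-hyperoxia. In C57BL/6J the values were 3.14, 2.60 and 3.71 CPM, then 0.525, 0.545 and 0.561 CPM, then 0.799, 0.597 and 0.756 CPM. All normoxia and normoxia-hyperoxia libraries were below all 24 h controls of their strain. The log2 differences were -2.09 ± 0.14 and -1.83 ± 0.14 for Eno1b, and -2.13 and -1.81 for Eno1 (SE, edgeR quasi-likelihood, adjusted p for Eno1b 1.67e-16 and 9.58e-15). From 6 h to 24 h Eno1b rose by 1.47 and Eno1 by 1.49. Rpsa-ps10 and Rpsa fell by 0.91 and 1.00 in normoxia, and Rpl3-ps1 and Rpl3 fell by 1.00 and 1.11. Mpc1-ps and Mpc1 rose by 1.01 and 0.99. Atp6v0c-ps2 rose by 0.66 and Atp6v0c by 0.34.

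The 5 largest called decreases in normoxia were those of Mup-ps23, Hsp25-ps1, Bod1-ps, Krt8-ps and Cdv3-ps. Mup-ps23, named for the major urinary proteins, held 113, 166 and 123 counts in C57BL/6J controls at 24 h and 5, 14 and 8 in DBA/2J, and 0 in all 6 normoxia libraries. That is at least 173-fold lower against a floor of 3 counts over the 6 libraries. Krt8-ps, a copy of the epithelial keratin gene Krt8, held 2.49, 3.66 and 3.15 CPM in C57BL/6J and 4.68, 4.67 and 3.52 CPM in DBA/2J controls, and 0.0437 to 0.369 CPM in normoxia. The groups were apart, and the log2 differences were -3.98 ± 0.28 for Krt8-ps and -4.002 ± 0.10 for Krt8 (SE, edgeR quasi-likelihood, adjusted p for Krt8-ps 3.02e-16). Hsp25-ps1 is a copy of Hspb1, which encodes a small heat shock protein. It held 0.888 to 1.94 CPM in 24 h controls, at most 0.102 CPM in normoxia and 3.56 to 9.16 CPM in normoxia-hyperoxia. Its log2 differences were -5.65 ± 0.52 and 2.29 ± 0.24, and those of Hspb1 were -4.62 ± 0.16 and 2.07 ± 0.14. The normoxia value of Hsp25-ps1 rests on a group at 0, since all 3 DBA/2J libraries had 0 counts there. The copy and the parent thus went down together in one condition and up together in the other. Cdv3-ps differed by -3.28 and Cdv3 by -1.91. Bod1-ps, with 23 counts in controls and 1 in normoxia, was lower by a ratio of 27.8 with a 95% exact counting interval of 4.51 to 1144, and Bod1 went the other way, by 0.77.

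Ywhaq-ps1 had 62 counts in controls and 1 in normoxia, a ratio of 74.8 with an interval of 12.9 to 3003, but could not be called in a fit of group means because of its groups at 0. Its nearest coding gene, Sfn, differed by -5.97.

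The 5 largest called increases in normoxia rested on few counts in controls. Rdh18-ps, Mlnr-ps and Smkr-ps had 79, 61 and 77 counts outside normoxia, so they reached the threshold only with the normoxia libraries and their increases are a description. Hspe1-ps6, a copy of the gene for the mitochondrial co-chaperonin that lies inside the gene Cyp2j13 on the same strand, had 1 count in the 6 controls at 24 h and 109 in the 6 normoxia libraries. Its ratio was 90.3 with a 95% exact counting interval of 15.9 to 3599, and Hspe1 differed by 0.27 on the log2 scale. Rdh18-ps, which overlaps an exon of the retinol dehydrogenase gene Rdh16 on the same strand, went from 3 to 87 counts, a ratio of 24.0 with an interval of 7.95 to 119. Mlnr-ps, a disabled motilin receptor gene, went from 1 to 45 counts and Smkr-ps from 1 to 27, with ratios of 37.3 (interval 6.36 to 1505) and 22.4 (interval 3.69 to 916). Rpl29-ps2 was at 0 to 0.278 CPM in controls and 0.743 to 1.77 CPM in normoxia, with no overlap. It differed by 3.58 ± 0.58 (SE, edgeR quasi-likelihood, adjusted p 6.26e-07), and Rpl29 differed by -0.67. Rpl29-ps2 thus rose where its parent fell, while Hspe1 was not called (edgeR quasi-likelihood, adjusted p 0.161).

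In normoxia-hyperoxia, 3 members were called higher by the largest amounts: Smkr-ps, with 1 count in controls and 18 in the condition (ratio 18.2, 95% exact counting interval 2.87 to 757), Hspe1-ps6, with 1 and 15 counts (ratio 15.1, interval 2.33 to 638), and Hsp25-ps1. Smkr-ps reached the threshold only with the libraries of this condition, so its increase is a description. The 3 largest called decreases were those of Cyp4b1-ps2, Cyp4b1-ps1 and Rps7-ps2. Cyp4b1 encodes a cytochrome P450 enzyme. Cyp4b1-ps2 had 20 counts in controls and 1 in the condition (ratio 19.8, interval 3.17 to 821), and Cyp4b1-ps1 had 9 and 0, at least 2.97-fold lower. Cyp4b1-ps1 reached the threshold only with those controls, and its decrease is a description. Cyp4b1 itself fell by 1.53. Rps7-ps2, which aligned best to the polyamine synthesis gene Odc1, had 24 counts in controls and 6 in the condition, with 0 in C57BL/6J. Its fitted difference of -2.61 ± 1.01 (SE, edgeR quasi-likelihood, adjusted p 0.0244) rests on that group at 0, and Odc1 fell by 0.75. The call of Rps7-ps2 was lost without replicate 3 of the C57BL/6J controls at 24 h or replicate 2 of C57BL/6J normoxia-hyperoxia, with adjusted p up to 0.117 by the same test. That of Cyp4b1-ps1 was lost without that control, or without any C57BL/6J library or replicate 1 or 3 of DBA/2J of normoxia-hyperoxia, with adjusted p up to 0.0680.

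Between 6 h and 24 h ex vivo, the largest called increases were those of Aldoa-ps4, Slc22a13b-ps and Rpl13-ps1. Aldoa-ps4, a copy of the glycolytic aldolase gene that had 72 counts outside the 24 h controls and reached the threshold only with them, had 3 counts in the 6 libraries at 6 h and 31 at 24 h (ratio 10.9, 95% exact counting interval 3.40 to 55.7), and Aldoa rose by 0.97 on the log2 scale. Slc22a13b-ps, nearest to the organic anion transporter gene Slc22a13, differed by 2.53 ± 0.48, while Slc22a13 fell by 1.89. Rpl13-ps1 differed by 2.36 ± 0.55, with 0, 0 and 1 counts in the DBA/2J controls at 6 h. Without replicate 3 of those controls, which held that count, its difference was 3.297. The largest decreases were those of Smkr-ps, Hspe1-ps6 and Mlnr-ps, each with 20 counts at 6 h and 1 at 24 h, a ratio of 18.96 with an interval of 3.03 to 786. Smkr-ps and Mlnr-ps reached the threshold only with the 6 h controls, so their decreases are a description. Without replicate 1 of the C57BL/6J controls at 6 h, the adjusted p of Mlnr-ps was 0.9999 by edgeR's quasi-likelihood test.

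The drugs moved few members, and those called were copies of ribosomal protein genes and of a ferritin gene. A ribosomal protein gene was the parent of 68 of the 211 rows. Tunicamycin blocks the attachment of sugars to proteins in the endoplasmic reticulum, and cyclosporin A inhibits calcineurin. At 24 h of tunicamycin 5 members, or 2.37%, were called by edgeR's quasi-likelihood test, all higher. Of all tested genes 1.36% were called and 0.967% were called higher. Rpl28-ps1, whose 414 aligned bases are identical to those of Rpl28, held 0.697, 0.417 and 1.21 CPM in C57BL/6J controls and 0.729, 0.558 and 0.880 CPM in DBA/2J controls. With tunicamycin it held 2.14, 1.93 and 2.35 CPM in C57BL/6J and 1.83, 1.95 and 2.21 CPM in DBA/2J. The treated libraries were all above the controls, and the log2 difference was 1.51 ± 0.29 (SE, adjusted p 0.00178). Rpl9-ps6, with 1 differing base from Rpl9, held 1.13 to 2.74 CPM in controls and 2.86 to 4.80 CPM with tunicamycin, again with no overlap, and differed by 1.049 ± 0.20 (edgeR quasi-likelihood, adjusted p 0.00178).

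The other 3 members called with tunicamycin lost their calls in some fits that left out a library. Rpl10-ps3, identical to Rpl10 over 740 bases, held 0.199 to 0.520 CPM in controls and 0.485 to 1.46 CPM with tunicamycin, with overlap, and differed by 1.44 ± 0.38 (edgeR quasi-likelihood, adjusted p 0.0427). Rpl7a-ps5 held 0.304 to 0.812 CPM and 0.914 to 2.21 CPM, with no overlap, and differed by 1.10 ± 0.27 (edgeR quasi-likelihood, adjusted p 0.0232). Ftl1-ps1, a copy of the ferritin light chain gene that overlaps the microRNA gene Mir692-3 on the same strand, held 2.64 to 3.29 CPM in C57BL/6J controls and 4.02 to 4.38 CPM with tunicamycin. In DBA/2J it held 6.40 to 8.73 CPM and 9.79 to 15.9 CPM. Within each strain the groups did not overlap, and its log2 difference was 0.55 ± 0.13 (edgeR quasi-likelihood, adjusted p 0.0202). Parents were not called: Rpl28 differed by 0.13, Rpl9 by 0.01, Ftl1 by 0.08, Rpl7a by 0.08 and Rpl10 by 0.12. The count of 5 was 3 or 2 without any of 5 single libraries: C57BL/6J controls at 24 h replicates 1 and 3, DBA/2J control at 24 h replicate 1 and DBA/2J tunicamycin at 24 h replicate 1 gave 3, and C57BL/6J tunicamycin at 24 h replicate 2 gave 2.

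At 24 h of cyclosporin A, Rpl28-ps1 was the only member called, or 0.474% of the members, where 0.0148% of all tested genes were. It held 1.10, 1.97 and 2.50 CPM in C57BL/6J and 2.30, 3.14 and 2.48 CPM in DBA/2J, against the same controls, which reached 1.21 CPM in C57BL/6J and overlapped there by 1 library. Its log2 difference was 1.58 ± 0.29 (SE, edgeR quasi-likelihood, adjusted p 0.0277), and the call was lost in 9 of 48 fits that left out a library, each of them a fit without 1 of 9 of the 12 control and cyclosporin A libraries at 24 h. The other members called with tunicamycin differed by 0.99 for Rpl9-ps6, 0.33 for Ftl1-ps1, 1.01 for Rpl7a-ps5 and 1.40 for Rpl10-ps3, with adjusted p of 0.0868, 0.701, 0.360 and 0.360 by the same test. Both drugs were compared with the same 24 h controls. At 6 h, edgeR and DESeq2 called 0 members with either drug, where 0% of all tested genes were called by edgeR. At an unadjusted p under 0.05 by edgeR there were 10 with tunicamycin and 6 with cyclosporin A. Rpl28-ps1 differed by -0.09 with tunicamycin and 0.09 with cyclosporin A at 6 h.

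**Figure D5:**
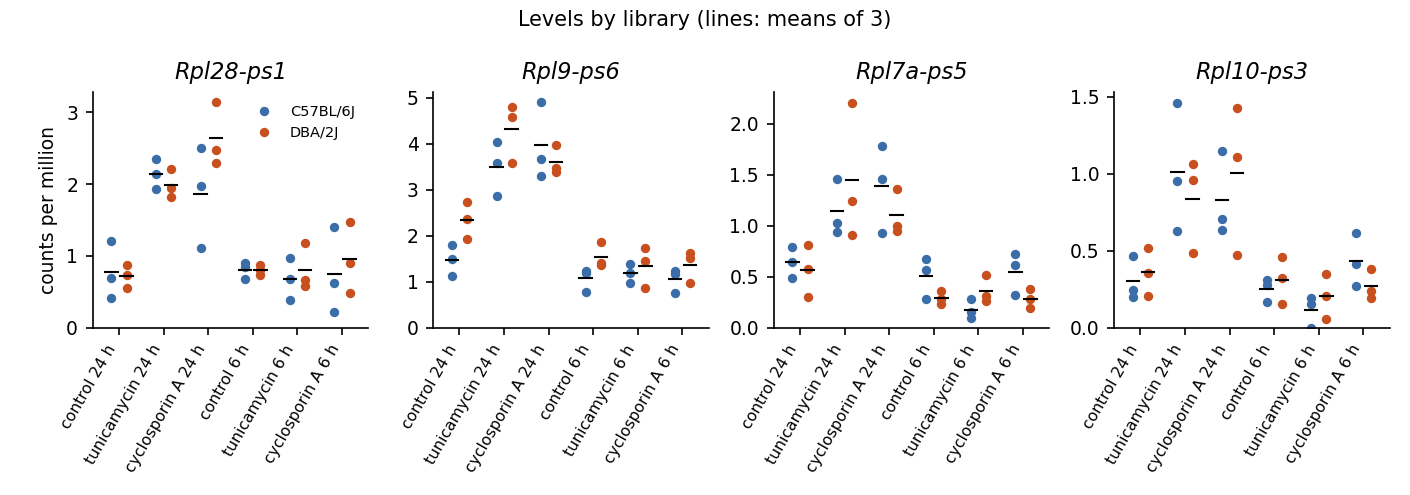
CPM of Rpl28-ps1, Rpl9-ps6, Rpl7a-ps5 and Rpl10-ps3 in each library of the control, tunicamycin and cyclosporin A groups at 24 h and 6 h, with C57BL/6J in blue, DBA/2J in orange and lines at means of 3. At 24 h the means of both drugs lie above the control means of their strain, and at 6 h no member was called.

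A difference between strains in the response to a condition was tested as an interaction, the DBA/2J effect minus the C57BL/6J effect. In normoxia 2 members were called, where 9.7% of all tested genes were, or 5 with a replicate block or in a fit of the compared libraries only, and in normoxia-hyperoxia 3 were called, where 1.93% were. The members' shares were below the background in both. None of the members that differed at least 4-fold between strains was among the members called without a block, which were Slfn10-ps and Ifi203-ps, unprocessed pseudogenes of interferon-induced gene families, and the ribosomal protein gene copies Rps19-ps3 and Rpl10-ps6.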

How the data were processed

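RNA was sequenced from 48 kidney slice libraries with a stranded poly(A) kit, per the labels. The deposited values are raw counts per gene, made by the authors with bcl2fastq 2.20.0, FastQC 0.11.8, STAR 2.7.9a and featureCounts 1.5.1 on GRCm38, per the submitters' processing notes. That build derives from C57BL/6J, and both strains were counted on it. The strand and multi-mapping settings and the annotation release are not given in the sources used here, so the division of reads between near-identical copies is uncertain.

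The members and lists were chosen with earlier results of these data known. Of 55487 gene IDs, 55227 were found in GENCODE M21, used for types, positions and sequences. A parent is the gene left when the -ps ending is taken off the symbol, otherwise the best blastn 2.17.0 match (at least 80% identity, 150 bases and 30% of the member), a step added after seeing the data. Counts were fitted with edgeR 4.0.16 (R 4.3.3, limma 3.58.1): TMM factors, 16 group means, genes with 100 or more counts, 32 residual degrees of freedom, quasi-likelihood F tests and Benjamini-Hochberg adjustment over 20271 genes. Standard errors are the log2 difference divided by the square root of F. A fit with a strain and a condition term was added after seeing the data, because 28 members had a group without counts. CPM used the deposited totals, whose smallest was 5619309 and next smallest 12384733, and intervals and floors of 3 counts cover counting error only. Named members are Eno1b, the 10 highest -ps members by mean CPM, the 10 largest called strain differences, the 5 largest called changes each way in normoxia and 3 each way in normoxia-hyperoxia and time, up to 5 called per drug and interaction, and the members at the threshold. Others, such as the Rps15a family, Rbpj-ps3, the 4-fold lower members and the enolase genes, were named after their values were seen. Alternatives were DESeq2 1.42.0, its size factors, other filters, other sets of libraries, a replicate block, members' counts added to parents, and leaving out each library. The fitting code was tested on simulated data.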

Additional observations from a re-analysis of the deposited data

Results flagged for a closer look

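In 5 cases the response to a condition differed between strains by the edgeR quasi-likelihood interaction test, the DBA/2J effect minus the C57BL/6J effect on the log2 scale. Slfn10-ps differed by 3.29 ± 0.63 (SE, adjusted p 0.00055) in normoxia. It held 2.99, 4.22 and 4.52 CPM in C57BL/6J controls at 24 h and 0.394, 0.248 and 0.102 CPM in normoxia, and 1.15, 1.67 and 1.62 CPM and then 0.983, 0.990 and 0.841 CPM in DBA/2J. In normoxia-hyperoxia the Slfn10-ps difference was 2.92 ± 0.54 (edgeR quasi-likelihood, adjusted p 0.00159), with 0.958, 1.03 and 1.76 CPM in C57BL/6J and 4.08, 3.38 and 3.56 CPM in DBA/2J, so that it was lower than in controls in one strain and higher in the other.

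Ifi203-ps differed by 1.46 ± 0.33 in normoxia-hyperoxia (edgeR quasi-likelihood, adjusted p 0.0116). It held 4.01, 4.11 and 3.52 CPM in DBA/2J controls at 24 h and 10.9, 11.6 and 12.9 CPM in the condition, while in C57BL/6J the values were 5.03, 4.82 and 6.54 CPM and then 5.48, 6.45 and 5.44 CPM, which overlap.

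Rps19-ps3 differed by 1.96 ± 0.58 in normoxia (edgeR quasi-likelihood, adjusted p 0.0242). In DBA/2J it held 0.416, 0.254 and 0.338 CPM in controls at 24 h and 1.35, 1.56 and 1.01 CPM in normoxia, and in C57BL/6J the groups overlapped. The call was lost without C57BL/6J control at 24 h replicate 3, C57BL/6J normoxia replicate 1, DBA/2J controls at 24 h replicate 2 or 3, or DBA/2J normoxia replicate 2, with adjusted p up to 0.0893.

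Rpl10-ps6 differed by -6.55 ± 1.69 in normoxia-hyperoxia (edgeR quasi-likelihood, adjusted p 0.0315), a fitted value that rests on a group at 0. In DBA/2J it had 20 counts in controls at 24 h and 0 in the condition, at least 5.33-fold lower against a floor of 3 counts over the group. In C57BL/6J it had 7 and 13 counts, a ratio of 1.57 with a 95% exact counting interval of 0.584 to 4.66. The call was lost in 6 of 48 fits that left out a library, with adjusted p up to 0.0959.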

How the results depend on the processing

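Adding the members' counts turned the strain difference of Atp6v0c to 0.0451 and that of Eif3e to 0.0232, and in 24 h controls alone Ppp4r1l-ps stood at 0.0290. The strain count, 81 with Eno1b and 80 without, was with Eno1b 47 in 24 h controls alone and 47 in 6 h controls alone. Fits of the compared libraries only gave 68 of 113 tested members in normoxia, 53 of 109 in normoxia-hyperoxia, 5 for the normoxia interaction, 3 for tunicamycin and 0 for cyclosporin A at 24 h. With edgeR's filterByExpr on those 12 libraries the last 3 counts were 5, 3 and 0, and the fit with a strain and a condition term gave 3 for tunicamycin and 0 for cyclosporin A. DESeq2 called 0 for cyclosporin A, with an adjusted p for 4 members, and no filter gave 2 for tunicamycin. The causes were not tested. Leaving out each library gave 76 to 85 for strain, 96 to 111 for normoxia, 64 to 80 for normoxia-hyperoxia, 64 to 73 for time, 2 to 5 for tunicamycin and 0 to 2 for cyclosporin A at 24 h, 0 to 0 for both drugs at 6 h, and 1 to 3 and 2 to 4 for the normoxia and normoxia-hyperoxia interactions. Of 2674 values for named members in such fits, 2609 kept direction and call and 0 reversed.

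With a replicate block the normoxia interaction count was 5 in place of 2, and the other counts were 81 for strain, 110, 78 and 72 for normoxia, normoxia-hyperoxia and time, at 24 h 5 for tunicamycin and 1 for cyclosporin A, at 6 h 0 for each, and 4 for the normoxia-hyperoxia interaction. All 57 named values kept direction and call under the replicate block. Same-numbered samples correlated above 0.1 in 24 of 42 pairs (mean 0.113, range -0.276 to 0.542). No contrast had all of its 6 pairs above 0.1. Within a strain, all 3 pairs were above 0.1 for C57BL/6J in normoxia-hyperoxia and tunicamycin at 6 h, and for DBA/2J in tunicamycin at 24 h. The numbers were not taken to pair the samples in the main fit, and whether they mark a shared block was not tested.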
